A study of Homo sapiens with 8 samples.

Results

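BRCA1 and 9 genes whose proteins bind it or sit in the same complexes were followed through the 4 groups of an RNA sequencing study of ovarian cancer (OC) cells. The set was chosen by gene name. It holds BRCA1, its obligate partner BARD1, the repair mediators PALB2 and BRCA2, the helicase BRIP1, the nuclease cofactor RBBP8, the BRCA1-A complex subunits FAM175A, BRCC3 and BABAM1, and the checkpoint activator TOPBP1. These are 10 of 25369 named genes in the count table. All 10 had counts in every library and passed the filter on low counts, which left 17714 genes for testing.

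BRCA1 pairs with BARD1 through their RING domains to form a ubiquitin ligase, and neither protein is stable for long without the other. The carboxyl-terminal BRCT repeats of BRCA1 bind phosphorylated partners in turn, which gives separate complexes with Abraxas (the FAM175A product), BRIP1 or CtIP (the RBBP8 product), while a coiled coil binds PALB2 and through it BRCA2. These complexes act in the resection of broken DNA ends, in homologous recombination and in checkpoint control, and inherited loss of BRCA1 or BRCA2 predisposes to high-grade serous ovarian cancer.

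The cells were UWB1.289, an established human OC line. Its BRCA1 gene carries a frameshift mutation that gives a truncated protein without the BRCT repeats. The parental line is called BRCA1-null, the same line transduced with BRCA1 is called BRCA1+, and every group therefore shares the mutated background. Both lines were cultured for 24 h with DMSO, the vehicle, or with 0.5 uM entinostat, an inhibitor of class I histone deacetylases, and each of the 4 groups had 2 libraries. The comparisons ask what changes with BRCA1 status and with the drug. The promoter of the BRCA1 vector and whether the BRCA1+ line is a single clone are not given in the sources used here, so a difference between the lines cannot be told apart from a difference between the particular cell populations. Reads of the mutated BRCA1 transcript and of the introduced one fall under the same gene in the count table and cannot be told apart either. The labels do not say that replicate libraries came from separate cultures, and p-values then measure only the spread between these libraries.

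Total counts ranged from 31900158 to 53549893 per library, and a count of 3 corresponded to 0.0552 to 0.0946 CPM (counts scaled to the effective size of each library). The cells had the epithelial markers of the line's labelled origin, since EPCAM, KRT7, KRT8, KRT18, PAX8 and MUC16 together stood between 13472 and 17643 CPM. The summed markers of other cell types stood between 14.5 and 36.5 CPM for leukocytes, between 12.9 and 59.3 CPM for fibroblasts and between 8.75 and 90.2 CPM for endothelium, with DCN at 0 counts in all 8 libraries. Within each treatment all 3 of these sums were higher in BRCA1-null than in BRCA1+ libraries. Within each line the endothelial and leukocyte sums were higher in both entinostat libraries than in both controls, as was the fibroblast sum in BRCA1+ cells, while the fibroblast sums of BRCA1-null control and entinostat libraries overlapped. CDH5 made up most of the endothelial sum at the upper end, and CD68 made up most of the leukocyte sum. Other markers differed from their sums in direction. Within each treatment CD14 and PECAM1 were lower in both BRCA1-null libraries than in both BRCA1+ libraries. PTPRC overlapped between the lines in DMSO and was lower in BRCA1-null libraries in entinostat. The part of these markers in the members' values was not tested.

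Levels of the members were compared per length of the gene model, as RPKM (reads per kilobase of model, scaled by library size). In BRCA1+ control cells BABAM1, which encodes the small scaffold subunit MERIT40, had the highest level at 71.5 ± 1.31 RPKM (SD, n = 2). TOPBP1 followed at 17.4 ± 0.709 RPKM. BRCC3 at 13.7 ± 0.262, RBBP8 at 13.3 ± 1.01 and BRCA1 at 13.0 ± 0.629 RPKM came next. RBBP8 overlapped both of its neighbours in this order, while both BRCC3 libraries lay above both BRCA1 libraries. Below them stood PALB2 at 11.6 ± 1.30, FAM175A at 6.19 ± 0.400, BRCA2 at 5.39 ± 0.0291, BRIP1 at 4.61 ± 0.491 and BARD1 at 3.60 ± 0.169 RPKM, each with both libraries above those of the next. In BRCA1-null control cells the order of the other 9 members was the same, and BRCA1 had moved from rank 5 to rank 9 with 2.95 ± 0.138 RPKM. In BRCA1-null entinostat cells BRCA1 at 2.49 ± 0.152 RPKM and BARD1 at 2.41 ± 0.0638 RPKM were no longer separated by their libraries.

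**Figure D1:**
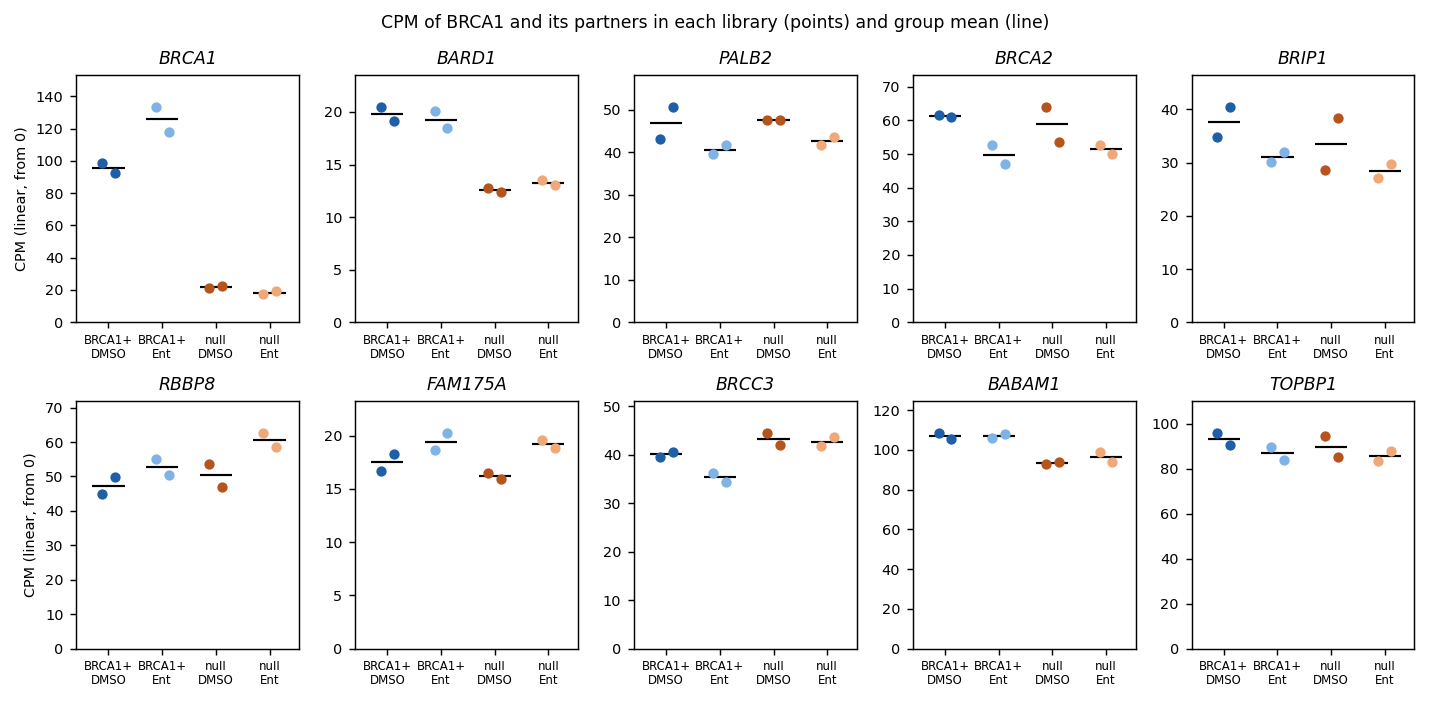
CPM (vertical axes, linear from 0, a separate scale for each gene) of the 10 genes in each of the 8 libraries (points), by group, with the mean of the 2 libraries as a line. BRCA1 lies between 92.4 and 133 CPM in BRCA1+ cells and between 17.6 and 22.4 CPM in BRCA1-null cells, BARD1 is lower in all 4 BRCA1-null libraries, and the other panels show groups that lie close together or overlap.

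BRCA1 itself, the tumour suppressor that the BRCA1+ line carries as an added gene, checks the labels. Its level was 98.9 and 92.4 CPM in the BRCA1+ control libraries, 133 and 118 CPM in the BRCA1+ entinostat libraries, 21.0 and 22.4 CPM in the BRCA1-null control libraries, and 17.6 and 19.2 CPM in the BRCA1-null entinostat libraries. All 4 BRCA1-null libraries lay far below all 4 BRCA1+ libraries, and the transcript remained well above the floor of the assay in the cells named null. In DMSO BRCA1 was 4.40-fold lower in BRCA1-null cells, a log2 fold change of -2.14 ± 0.0861 (SE) with a 95% interval of -2.33 to -1.94 and an adjusted p of 5.46e-07. With entinostat it was 6.84-fold lower, a log2 fold change of -2.77 ± 0.0888 with an interval of -2.98 to -2.57 and an adjusted p of 1.78e-07. This difference was set up by the design of the lines and checks them rather than adding a finding.

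BARD1 encodes the partner that BRCA1 needs for ligase activity and for its own stability. Its level was 20.5 and 19.2 CPM in BRCA1+ control, 20.1 and 18.5 CPM in BRCA1+ entinostat, 12.8 and 12.4 CPM in BRCA1-null control, and 13.5 and 13.0 CPM in BRCA1-null entinostat libraries. The lowest BRCA1+ library lay above the highest BRCA1-null library. BARD1 was lower in BRCA1-null cells by a log2 fold change of -0.65 ± 0.0892 in DMSO (1.57-fold, interval -0.85 to -0.45, adjusted p = 0.000412) and of -0.53 ± 0.0913 in entinostat (1.45-fold, interval -0.74 to -0.33, adjusted p = 0.00154). Both calls were kept in every alternative, with adjusted p-values up to 0.0046 in DMSO and 0.0134 in entinostat. In bulk RNA, fewer cells in which a gene is expressed and less RNA of it per cell cannot be told apart.

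The relation between BRCA1 and BARD1 was also computed within each library as the ratio of their RPKM levels. The length of the introduced BRCA1 transcript is not given in the sources used here. The ratio in BRCA1+ libraries therefore rests on the length of the gene model and is not a ratio of transcripts. In BRCA1+ libraries the ratio was 3.61 and 3.60 without the drug against 4.97 and 4.78 with it, while BRCA1-null libraries had 1.23 and 1.35 without the drug against 0.972 and 1.10 with it. It was thus lowest in the drug-treated BRCA1-null line and highest in the drug-treated BRCA1+ line, with no overlap between any of the groups. BRCA1 made up 7.81% to 11.2% of the summed RPKM of the 10 genes in BRCA1+ libraries and 1.66% to 2.20% in BRCA1-null libraries. The BRCA1+ line carries BRCA1 as an added gene, so the gap between the lines in the ratio and in this share was set up by the design. The summed RPKM of the other 9 members ran from 142 to 148 in BRCA1+ and from 135 to 141 in BRCA1-null libraries, a sum that BABAM1 dominates.

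**Figure D2:**
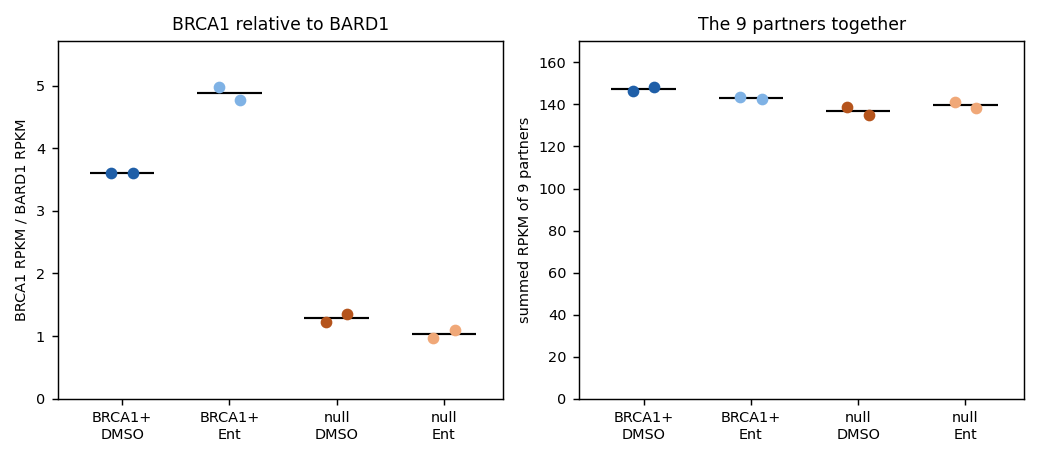
Left, ratio of BRCA1 RPKM to BARD1 RPKM in each library (points) with the group mean (line). Right, summed RPKM of the 9 members other than BRCA1. Both vertical axes are linear from 0. The ratio stands at 3.60 to 4.97 in BRCA1+ libraries and at 0.972 to 1.35 in BRCA1-null libraries, a gap that the design of the lines set up. The sum of the partners stays between 135 and 148.

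The region around the annotated start is shown for the 4 members that differed between the lines and for PALB2, whose start lies 9 bases from that of DCTN5, because these are the sequences from which the endogenous transcripts begin. The BRCA1+ line also reads BRCA1 from its vector, to which the first window does not apply. Each window runs from 250 bases before the start to 50 after it, 5′ to 3′ on the strand of the gene. Starts are those of the deposited positions, the sequence is that of GRCh37, and capitals mark matches to any of 6 motifs. The windows are chr17:41277451-41277750 (minus strand) for BRCA1, chr2:215674386-215674685 (minus) for BARD1, chr19:17377935-17378234 (plus) for BABAM1, chrX:154299445-154299744 (plus) for BRCC3 and chr16:23652629-23652928 (minus) for PALB2.
BRCA1: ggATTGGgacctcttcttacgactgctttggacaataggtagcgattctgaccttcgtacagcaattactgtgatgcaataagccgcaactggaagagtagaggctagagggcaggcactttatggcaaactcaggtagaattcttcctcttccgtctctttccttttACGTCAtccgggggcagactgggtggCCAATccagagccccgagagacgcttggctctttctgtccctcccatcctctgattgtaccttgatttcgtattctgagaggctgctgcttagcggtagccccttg
BARD1: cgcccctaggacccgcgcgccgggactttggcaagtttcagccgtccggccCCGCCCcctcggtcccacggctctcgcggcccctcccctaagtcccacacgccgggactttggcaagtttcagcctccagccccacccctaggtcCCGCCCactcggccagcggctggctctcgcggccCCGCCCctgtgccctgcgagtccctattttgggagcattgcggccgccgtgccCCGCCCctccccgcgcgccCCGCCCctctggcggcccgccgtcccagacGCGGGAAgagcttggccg
BABAM1: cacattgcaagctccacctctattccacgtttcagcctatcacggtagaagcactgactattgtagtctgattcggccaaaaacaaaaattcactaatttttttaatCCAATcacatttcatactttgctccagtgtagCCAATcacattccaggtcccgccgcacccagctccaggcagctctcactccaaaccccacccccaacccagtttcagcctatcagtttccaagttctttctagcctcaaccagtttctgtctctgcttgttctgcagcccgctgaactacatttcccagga
BRCC3: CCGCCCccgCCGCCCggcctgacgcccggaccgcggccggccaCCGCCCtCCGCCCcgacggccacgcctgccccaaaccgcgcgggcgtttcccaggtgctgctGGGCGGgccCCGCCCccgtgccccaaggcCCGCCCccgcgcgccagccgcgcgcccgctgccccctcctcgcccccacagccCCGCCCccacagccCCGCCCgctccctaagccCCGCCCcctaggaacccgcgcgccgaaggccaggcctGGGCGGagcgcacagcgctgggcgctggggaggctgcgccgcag
PALB2: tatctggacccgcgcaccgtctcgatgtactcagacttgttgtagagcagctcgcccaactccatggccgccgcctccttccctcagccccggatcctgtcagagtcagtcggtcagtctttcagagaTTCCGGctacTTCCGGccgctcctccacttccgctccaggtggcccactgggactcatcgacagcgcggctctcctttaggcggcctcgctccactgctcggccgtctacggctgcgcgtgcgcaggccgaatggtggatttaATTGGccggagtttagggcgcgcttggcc

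The motifs were searched on both strands in all 10 windows and in 24777 windows of the same length. The CCAAT box (CCAAT) was present in 4 members (BRCA1, PALB2, BRIP1 and BABAM1) and in 35.4% of all windows. A CRE core (TGACGT) was present in BRCA1, at position -82 from the start and ahead of a CCAAT box at position -56, and in RBBP8, against 8.38% of all windows. An E2F match (TTCCCGC, TTTGGCGC or TTTCGCGC) was present in BARD1, BRIP1 and TOPBP1, against 7.94%. The ETS core (CCGGAA) was found in 4 members (PALB2, BRCA2, FAM175A and TOPBP1) against 18.0%, the GC box (GGGCGG) in 7 members against 49.2%, and the NRF1 core (GCGCATGC) in none of the 10 members against 3.46%. The windows differed widely in composition, from 47.3% GC in BABAM1 and 51.3% in BRCA1 to 75.0% in BARD1 and 83.7% in BRCC3, where 11 GC boxes were found, with a median of 59.3% over all windows. These matches describe letters in the windows and were not tested against the measured changes.

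Between the lines in DMSO, 3 of the 10 members were called at an adjusted p under 0.05, all lower in BRCA1-null cells, namely BRCA1, BARD1 and BABAM1. Over all genes tested 42.2% were called, 21.1% higher and 21% lower. The median log2 fold change was -0.087 over the 10 members and 0.012 over all genes. The BRCA1 difference was set up by the design of the lines. Of the 9 members other than BRCA1, 2 were called lower and 0 higher, with a median of -0.063. In entinostat 3 members were called, BRCA1 and BARD1 lower and BRCC3 higher in BRCA1-null cells. Over all genes 39.4% were called there, 20.5% higher and 18.9% lower. The medians were -0.020 over the members and 0.019 over all genes. Without BRCA1, 1 of the 9 was called lower and 1 higher in entinostat, with a median of -0.018.

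**Figure D3:**
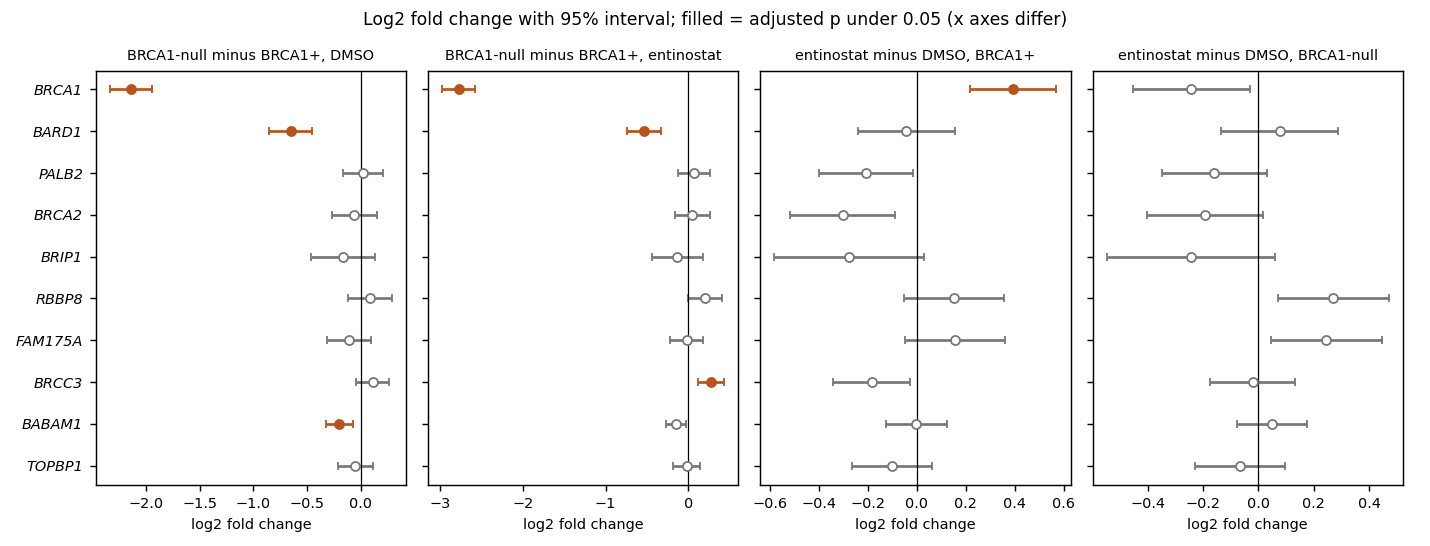
Log2 fold change (horizontal axes, a separate range in each panel) with its 95% interval for the 10 genes in the 4 comparisons, filled where the adjusted p is under 0.05. Between the lines BRCA1 at -2.14 and -2.77 and BARD1 at -0.65 and -0.53 stand clear of 0, and for entinostat against DMSO the only filled point is BRCA1 in BRCA1+ cells at 0.39.

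The repair mediators did not change detectably between the lines. PALB2, the bridge from BRCA1 to BRCA2, stood at 43.2 and 50.6 CPM in BRCA1+ control and at 47.6 and 47.5 CPM in BRCA1-null control libraries, so the BRCA1-null values lay inside the BRCA1+ range. Its log2 fold change was 0.019 ± 0.0832 in DMSO, with an interval of -0.17 to 0.21. BRCA2, a mediator of strand exchange in homologous recombination, stood at 61.6 and 61.1 CPM in BRCA1+ control and at 64.0 and 53.6 CPM in BRCA1-null control libraries, with a log2 fold change of -0.063 ± 0.0925 and an interval of -0.27 to 0.15. In entinostat the difference between the lines was 0.070 for PALB2 and 0.049 for BRCA2, with intervals that end at 0.26 for both.

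Among the BRCT-binding partners, BRIP1, a helicase also known as FANCJ, had the widest spread between replicates. It stood at 34.8 and 40.5 CPM in BRCA1+ control but at 28.6 and 38.3 CPM in BRCA1-null control libraries, and the groups overlapped. The log2 fold change in DMSO was -0.17 ± 0.132 (adjusted p = 0.346). Without BRCA1-null control library 2 it was -0.40 with an adjusted p of 0.0367, and without BRCA1-null control library 1 it was 0.044 with an adjusted p of 0.798, so its direction depended on which of these libraries was kept. RBBP8 encodes CtIP, which starts the resection of DNA ends with the MRE11 nuclease. It stood at 44.8 and 49.9 CPM in BRCA1+ control and at 53.6 and 47.0 CPM in BRCA1-null control libraries, which overlap, and differed by 0.085 ± 0.0901 on the log2 scale with an interval of -0.12 to 0.29.

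The 3 members that belong to the BRCA1-A complex, which binds ubiquitin chains at breaks, did not share a sign of log2 fold change between the lines. Of these members only BABAM1 was called in DMSO and only BRCC3 in entinostat. BABAM1 stood at 108 and 106 CPM in BRCA1+ control and at 92.7 and 93.7 CPM in BRCA1-null control libraries. Its log2 fold change of -0.20 ± 0.0557 in DMSO (interval -0.33 to -0.074, adjusted p = 0.0178) was a fall of 13.0% in BRCA1-null cells. This call was lost with upper-quartile scaling (adjusted p = 0.0543) and without BRCA1+ control library 1 (0.0789), BRCA1-null control library 1 (0.106) or BRCA1-null control library 2 (0.0673). In entinostat the log2 fold change of BABAM1 was -0.15 ± 0.0560 with an adjusted p of 0.0615, and it was called with DESeq2 size factors (-0.16, adjusted p = 0.048).

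BRCC3, the deubiquitinase subunit that cuts K63-linked chains, was at 39.6 and 40.7 CPM in BRCA1+ control and at 44.5 and 42.1 CPM in BRCA1-null control libraries. With entinostat it was at 36.3 and 34.3 CPM in BRCA1+ and 41.8 and 43.6 CPM in BRCA1-null libraries. All BRCA1-null libraries lay above all BRCA1+ libraries. The log2 fold change was 0.11 ± 0.0684 in DMSO (adjusted p = 0.23) and 0.28 ± 0.0701 in entinostat (1.21-fold, interval 0.12 to 0.43, adjusted p = 0.0124). Without BRCA1+ entinostat library 2 the latter had an adjusted p of 0.111, and without BRCA1-null entinostat library 2 one of 0.0688. Whether the difference between the lines was larger with the drug than without it was tested by the interaction, 0.17 with an interval of -0.055 to 0.39 and an adjusted p of 0.967.

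FAM175A encodes Abraxas, the scaffold that ties the BRCA1-A complex to the BRCT repeats missing from the truncated protein. It stood at 16.7 and 18.3 CPM in BRCA1+ control and at 16.5 and 15.9 CPM in BRCA1-null control libraries, and its log2 fold change was -0.11 ± 0.0896 with an adjusted p of 0.352. TOPBP1, which activates the ATR kinase at stalled forks and also carries BRCT repeats, stood at 95.8 and 90.4 CPM in BRCA1+ control and at 94.5 and 85.1 CPM in BRCA1-null control libraries. The TOPBP1 difference of -0.053 ± 0.0718 had an interval of -0.22 to 0.11.

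Entinostat was compared with DMSO within each line. These comparisons share their DMSO libraries with the comparison of the lines, and their values are therefore given side by side only. In BRCA1+ cells 1 member, BRCA1, was called and was higher with the drug, against 14.1% of all genes, 8.13% higher and 6% lower. In BRCA1-null cells 0 members were called by edgeR at this threshold, against 10.8% of all genes with 7.57% higher and 3.19% lower. DESeq2 called 0 members there as well. In edgeR BRCA1, RBBP8 and FAM175A had an unadjusted p under 0.05 in BRCA1-null cells, beside 4856 of all 17714 genes. In BRCA1+ cells BRCA1, BRCA2, PALB2 and BRCC3 did so, beside 5129 of all 17714 genes. The medians over the members were -0.074 in BRCA1+ and -0.044 in BRCA1-null cells, beside 0.00041 and 0.019 over all genes.

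BRCA1 transcript rose with entinostat in BRCA1+ cells, where both treated libraries (133 and 118 CPM) lay above both controls (98.9 and 92.4 CPM). The log2 fold change was 0.39 ± 0.0784, a rise of 31.3% with an interval of 0.22 to 0.57 and an adjusted p of 0.0124. The adjusted p was 0.0911 without BRCA1+ entinostat library 1 and 0.0841 without BRCA1+ control library 2. In BRCA1-null cells both treated libraries (17.6 and 19.2 CPM) lay below both controls (21.0 and 22.4 CPM), with a log2 fold change of -0.24 ± 0.0936 that was not called (adjusted p = 0.131). The difference between these effects, the interaction, was -0.64 ± 0.122 with an interval of -0.91 to -0.36.

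In edgeR's quasi-likelihood test the BRCA1 interaction had an unadjusted p of 0.000527 and an adjusted p of 0.967 and no gene of the 17714 passed (0% called, 827 genes at an unadjusted p under 0.05, smallest adjusted p 0.6602). It was called by the DESeq2 Wald test (-0.64, adjusted p = 0.0158) and by edgeR's likelihood ratio test (-0.64, adjusted p = 0.026), which called 11 and 18 genes of all tested. The interaction was called for 0 members in the quasi-likelihood test, and its value for the other 9 members lay between 0.033 and 0.17, all above 0, as did 9949 of all genes. With upper-quartile scaling BRIP1 and TOPBP1 lay below 0, at -0.011 and -0.00770. The BRCA1 counts of the BRCA1+ line include its introduced gene, and the share of the rise that belongs to it was not tested.

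No other member was called with the drug in either line taken alone by the quasi-likelihood test. BRCA2 stood at 52.6 and 47.0 CPM in BRCA1+ entinostat libraries, against 61.6 and 61.1 CPM in the controls, with a log2 fold change of -0.30 ± 0.0945 (interval -0.52 to -0.091, adjusted p = 0.0638). It was called by the DESeq2 Wald test (0.0354), the likelihood ratio test (0.0402) and the fit on only the groups compared (0.04), each an adjusted p. In BRCA1-null entinostat libraries BRCA2 had 52.8 and 49.9 CPM, with a log2 fold change of -0.19. PALB2 stood at 39.5 and 41.6 CPM in BRCA1+ entinostat and at 41.6 and 43.6 CPM in BRCA1-null entinostat libraries, with log2 fold changes of -0.21 and -0.16. BRIP1 stood at 30.0 and 32.1 CPM in BRCA1+ entinostat and at 27.1 and 29.7 CPM in BRCA1-null entinostat libraries, with log2 fold changes of -0.28 and -0.24. For BRCA2 and PALB2 the treated libraries lay below the controls in each line. For BRIP1, BRCC3 and TOPBP1 they did so in BRCA1+ cells only. The share of all genes whose libraries were separated in this way was not counted.

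RBBP8 and FAM175A had values in the other direction. RBBP8 stood at 55.2 and 50.4 CPM in BRCA1+ entinostat and at 62.6 and 58.6 CPM in BRCA1-null entinostat libraries, with log2 fold changes of 0.15 ± 0.0912 and 0.27 ± 0.0889 (adjusted p = 0.0861 in BRCA1-null cells). FAM175A stood at 18.6 and 20.2 CPM in BRCA1+ entinostat and at 19.6 and 18.8 CPM in BRCA1-null entinostat libraries, with log2 fold changes of 0.16 and 0.25. Both treated libraries of each line lay above its controls for both genes, though RBBP8 in BRCA1+ cells was separated only by 50.4 against 49.9 CPM. The treated libraries of BARD1 and BABAM1 also lay above their controls in BRCA1-null cells. How many of all genes were separated in this way was not counted. TOPBP1, at 83.4 to 89.6 CPM in the 4 entinostat libraries, had log2 fold changes of -0.10 and -0.068, those of BRCC3 were -0.19 and -0.020, and those of BARD1 and BABAM1 lay between -0.044 and 0.076 over the lines.

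Averaging the entinostat effect over both lines, a comparison that was added after the values within each line had been seen, called 4 members against 26.1% of all genes, with 15.2% higher and 10.9% lower. BRCA2 (-0.25 ± 0.0663, adjusted p = 0.0234) and PALB2 (-0.18 ± 0.0597, 0.0492) were lower with the drug. RBBP8 (0.21 ± 0.0637, 0.0378) and FAM175A (0.20 ± 0.0632, 0.0445) were higher. Between 0 and 2 members were called when any 1 of the 8 libraries was left out, while the log2 fold changes kept their direction, from -0.31 to -0.19 for BRCA2, from -0.24 to -0.12 for PALB2, from 0.16 to 0.25 for RBBP8 and from 0.16 to 0.24 for FAM175A. The adjusted p then reached 0.0863 for BRCA2, 0.15 for PALB2, 0.127 for RBBP8 and 0.181 for FAM175A, and FAM175A was not called in any of those 8 fits. BRIP1 at -0.26 ± 0.0956 was not called (adjusted p = 0.0756) but was called without BRCA1-null control library 1 (adjusted p = 0.0121) and by the DESeq2 Wald test (adjusted p = 0.0347).

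A list of 10 proliferation genes was measured beside these values. Its summed level was 2123 and 2137 CPM in BRCA1+ control, 1909 and 1828 CPM in BRCA1+ entinostat, 2023 and 1822 CPM in BRCA1-null control, and 1793 and 1745 CPM in BRCA1-null entinostat libraries. With entinostat 4 of the 10 were called lower in the BRCA1+ line and 1 in the BRCA1-null line, none was called higher in either line, and the medians were -0.23 and -0.13. Over all genes 6% and 3.19% were called lower in these lines. Between the lines in DMSO 4 were lower in BRCA1-null cells and 1 was higher, AURKA at 0.22, beside 21% and 21.1% of all genes. The part of proliferation in the values of BARD1, BRCA2, PALB2 and BRIP1 was not tested.

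The genes beside the members were described from their deposited hg19 positions. BRCA1 lies at chr17:41196312-41277500 on the minus strand, is protein coding, and has 23 exons in its canonical GENCODE transcript. The start of NBR2, a non-coding gene on the opposite strand, is 100 bases from its start, and NBR2 went the other way between the lines. In BRCA1+ libraries it had 78 and 112 counts without the drug against 72 and 86 with it, while BRCA1-null libraries had 165 and 196 counts without the drug against 195 and 132 with it. Every BRCA1-null library lay above every BRCA1+ library. The log2 fold change of NBR2 was 0.71 under DMSO (adjusted p = 0.0208) and 0.86 under the drug (0.0118).

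Neighbours were the 10 tested genes on each side of a member in order of start, or fewer where the chromosome ended. Of the 20 neighbours of BRCA1, from chr17:41026691-41739262, 9 had a call upward in BRCA1-null cells and 1 downward in DMSO. Their median log2 fold change was 0.46, against -2.14 for BRCA1, and in entinostat their median was 0.22. The counts of neighbours given here are for DMSO, where 21.1% of all genes were called higher and 21% lower. BARD1 at chr2:215590370-215674435 lay among genes with a median of -0.36, of which 1 of 20 was called higher and 5 lower, and its own -0.65 was 0.29 lower on the log2 scale than that median. In entinostat the median of the BARD1 neighbours was -0.076. For BRCC3 at chrX:154299695-154351349 the 16 neighbours had a median of 0.15 in DMSO, with 3 called higher and 0 lower. Their median in entinostat was 0.43, and BRCC3 itself was at 0.11 in DMSO and 0.28 in entinostat. These 16 include F8A1, F8A2 and F8A3, whose merged positions span BRCC3, and F8A2 and F8A3 have identical counts. The neighbours of BABAM1 at chr19:17378185-17390162 had a median of -0.10, beside its own -0.20.

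**Figure D4:**
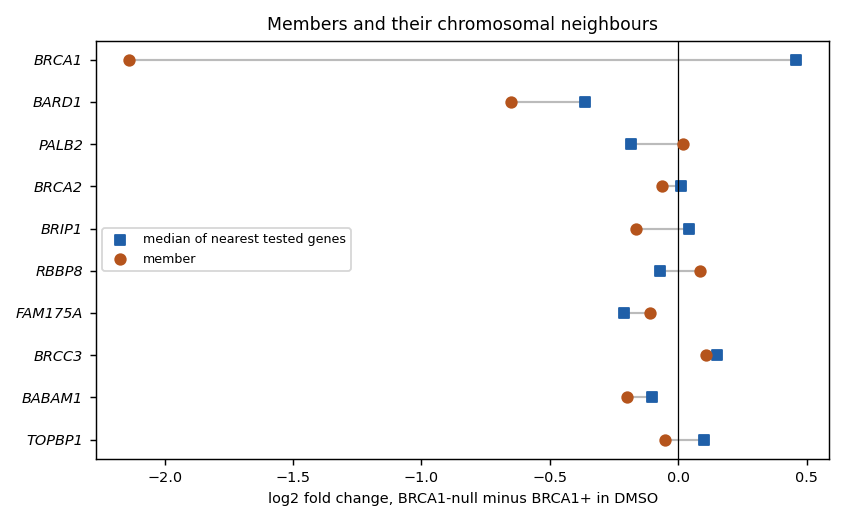
Log2 fold change, BRCA1-null minus BRCA1+ under DMSO (horizontal axis), of each of the 10 genes (circles), joined by a line to the median of its neighbours (squares). Neighbours are up to 10 tested genes on each side in order of start. BRCA1 lies at -2.14 with a neighbour median of 0.46, and BARD1 at -0.65 with a neighbour median of -0.36, while BRCC3 and its neighbours lie close together.

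Some members share a start region with another gene. DCTN5, a dynactin subunit that starts 9 bases from PALB2 on the other strand, had log2 fold changes of -0.39 under DMSO (adjusted p = 0.00107) and -0.31 under the drug (0.00357) between the lines, where PALB2 was at 0.019 and 0.070. CMC4, which starts 148 bases from BRCC3, had 0.33 under DMSO (adjusted p = 0.0158) and 0.47 under the drug (0.00309), the same direction as BRCC3. MTCP1, at the same distance, had 0.23 under DMSO (adjusted p = 0.24) and 0.54 under the drug (0.0229). LOC101928103, which starts 518 bases from BARD1, had 0.14 (adjusted p = 0.771) and 0.26 (0.585), where BARD1 was at -0.65 and -0.53. How the counting treated strand is not given in the sources used here, so reads in shared stretches cannot be assigned with certainty. This touches FAM175A, whose position overlaps that of MRPS18C (log2 fold change -0.0034 in DMSO), RBBP8, which contains MIR4741, and BRCC3, whose position lies within the merged positions given for the H2AFB, F8A and MIR1184 copies.

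Over the 8 libraries no partner lay near BRCA1 by a distance that counts the size of changes as well as their direction. Among the 10404 genes that averaged 3 or more on the log2 CPM scale, the nearest by root mean square distance of centred log2 CPM were SERINC2 (0.278), FBLN1 (0.291), FBN2 (0.303) and NELL2 (0.315). BARD1 was the nearest member, at rank 752 and a distance of 0.951. These distances are a description over 8 libraries of 2 lines, and the large gap between the lines sets most of them. These 4 genes had log2 fold changes of -2.03 to -2.79 between the lines in DMSO. With entinostat the log2 fold change of FBLN1 was 0.50 in the BRCA1+ line and 0.27 in the other line, where those of BRCA1 were 0.39 and -0.24.

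A wider list of 47 genes that recruit the BRCA1 complexes, work with them or oppose them was counted, of which 45 were tested. In DMSO 7 had a call upward in BRCA1-null cells and 19 downward, with a median of -0.17, beside 21.1% and 21% of all genes. In entinostat 9 were higher and 13 lower with a median of -0.084, beside 20.5% and 18.9% of all genes. Of the 7 tested genes of damage signalling upstream of the BRCA1-A complex, 4 were called lower and 0 higher under each treatment, beside 21% of all genes called lower in DMSO and 18.9% in entinostat. RNF8, the ubiquitin ligase that marks chromatin at breaks, fell furthest, from 21.8 ± 0.0214 CPM in BRCA1+ control to 9.93 ± 0.00058 CPM in BRCA1-null control cells (log2 fold change -1.14, adjusted p = 6.83e-05). RNF168, which extends the RNF8 mark, was lower by -0.65 (adjusted p = 0.00586).

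Of 5 antagonists of resection, 4 were called lower in DMSO, beside 21% of all genes, among them TP53BP1 at -0.21 (adjusted p = 0.0273). In entinostat 3 of them were called lower and 1 higher, PAXIP1 at 0.35 (adjusted p = 0.0347), beside 18.9% and 20.5% of all genes. NPM1, a nucleolar chaperone and substrate of the BRCA1-BARD1 ligase, was lower by -0.69 (adjusted p = 7.16e-06), from 3350 ± 101 to 2071 ± 63.3 CPM. RAD9A, a subunit of the clamp that binds TOPBP1, was higher by 0.61 (adjusted p = 0.000418), from 32.8 ± 2.61 to 50.2 ± 0.912 CPM. NBN, a subunit of the MRE11 complex, was higher by 0.42. In entinostat the largest differences between the lines were RAD9A (0.81), MORF4L1 (0.48) and NBN (0.48) upward and RNF8 (-1.04), NPM1 (-0.56) and RAD17 (-0.54) downward.

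With entinostat against DMSO, 1 of the 45 genes was called higher and 6 lower in BRCA1+ cells, beside 8.13% and 6% of all genes. In BRCA1-null cells 2 were higher and 2 lower, beside 7.57% and 3.19% of all genes. TP53BP1, which restrains resection, rose by 0.39 in the BRCA1+ line (adjusted p = 0.00563) and by 0.30 in the other (0.0187), from 44.8 ± 0.0464 to 58.6 ± 1.85 CPM and from 38.9 ± 0.553 to 48.0 ± 1.16 CPM. BRE, a core subunit of the BRCA1-A complex, rose by 0.30 in BRCA1-null cells. The largest falls in BRCA1+ cells were HMMR (-0.48), HUS1 (-0.38) and XRCC3 (-0.37), and in BRCA1-null cells ATRIP (-0.38) and BAP1 (-0.23) fell. In the averaged comparison over both lines 4 genes were higher and 9 lower, beside 15.2% and 10.9% of all genes. The interaction was called for 0 of the 45 genes.

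**Figure D5:**
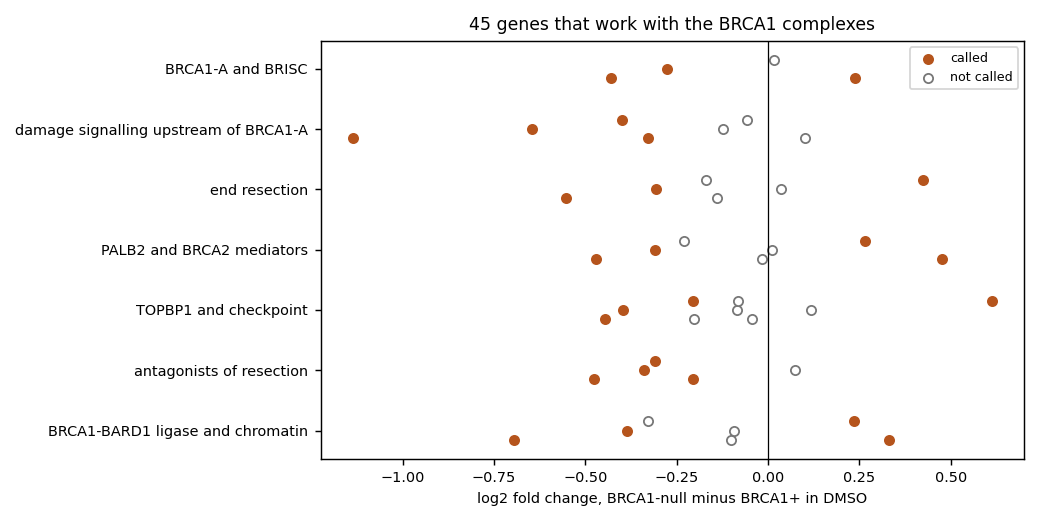
Log2 fold change, BRCA1-null minus BRCA1+ under DMSO (horizontal axis), of the 45 tested genes of the wider list, by the part of the pathway they belong to (rows), filled where the adjusted p is under 0.05. The damage signalling genes reach from RNF8 at -1.14 to 0.10, with 4 filled points all below 0, and RAD9A at 0.61 is the highest point of the plot.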

How the data were processed

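Poly(A) RNA of 8 libraries was sequenced, 2 for each combination of line and treatment, and groups were taken from the sample titles. The authors used TopHat 2 with hg19 for alignment and deposited raw read counts per gene symbol, counted with NGSUtils, with no normalisation. The deposited table also gives each gene's position and model length. Reads with several positions, strand and spliced reads were counted in a way not given in the sources used here. One entry without a name had 0 counts.

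CPM and RPKM were computed from the deposited counts with TMM-scaled library sizes. Tests used edgeR 4.0.16 in R 4.3.3 (quasi-likelihood fit with legacy set to FALSE, filterByExpr with the 4 groups, 8 libraries in one fit, 4 residual degrees of freedom), two-sided, with Benjamini-Hochberg adjustment over 17714 genes and a call at an adjusted p under 0.05. Standard errors and 95% intervals follow from the same fit, which was tested on simulated data. Floors of 3 counts cover counting error only. Figures were drawn with matplotlib 3.10.9 in Python 3.11.15. Gene names and the starts of promoter windows came from the deposited table, window sequences from GRCh37, and exon counts from GENCODE on GRCh37.

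The members and gene lists were chosen with earlier results of these data known. Named genes were all 10 members, up to 3 called rises and 3 falls of the wider list in each comparison, the genes most like BRCA1 (the rule names 5), and genes that overlap a member. Some genes that this rule names are not reported here. NBR2, DCTN5, CMC4, MTCP1, LOC101928103, AURKA, the other partners named for their counts, and the entinostat effect averaged over both lines were chosen after values were seen. Alternatives were upper-quartile and DESeq2 size factors, no filter, edgeR's likelihood ratio test, the Wald test of DESeq2 1.42.0, a replicate block, fits on only the groups compared, and the omission of each library.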

Additional observations from a re-analysis of the deposited data

Results flagged for a closer look

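BRCA1 had entinostat values of opposite sign in the lines. Both treated libraries lay above both controls in BRCA1+ cells (log2 fold change 0.39) and below both controls in BRCA1-null cells (-0.24, not called, adjusted p = 0.131), and the effect in BRCA1-null minus that in BRCA1+ cells was -0.64. The test of this difference had an adjusted p of 0.967 in edgeR's quasi-likelihood fit, 0.0158 in the DESeq2 Wald test and 0.026 in edgeR's likelihood ratio test.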

How the results depend on the processing

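Over the alternatives other than leaving out a library, 378 of 400 results kept their direction and their side of the threshold, 13 became calls, 5 lost the call and 4 changed sign, and with each library left out the counts were 417, 4, 32 and 27 of 480. The number of members called for entinostat in BRCA1+ cells was 2 with the DESeq2 Wald test, the likelihood ratio test or a fit on only the groups compared, where BRCA2 was added, and it ran from 0 to 2 without single libraries. The interaction was called for 1 member, BRCA1, by the DESeq2 Wald and the likelihood ratio test. Over both lines 2 members were called with no filter and 0 to 2 without single libraries. With the replicate number as a block, 4 members were called for entinostat in BRCA1+ cells (BRCA1, BRCA2 with an adjusted p of 0.0101, PALB2 with 0.048 and BRIP1 with 0.0354), 1 in BRCA1-null cells (RBBP8, 0.0368), 5 over both lines (BRIP1 added, 0.00745), 3 between the lines in DMSO and 4 in entinostat (BABAM1 added, 0.0298), and 0 for the interaction. The labels do not say what the replicate numbers share, and the deviations of same-numbered libraries correlated at 0.7176 and 0.6376 within the lines and at 0.234 to 0.2983 across them (10405 genes).

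Upper-quartile scaling changed the sign for entinostat in BRCA1+ cells of BARD1 (0.0032) and BABAM1 (0.045) and the interaction of BRIP1 (-0.011) and TOPBP1 (-0.00770), none of them called. Leaving out libraries changed the sign of small log2 fold changes that were not called. For the interaction these were TOPBP1 (-0.039 to 0.081), BRIP1 (-0.19 to 0.26), BRCA2 (-0.013 to 0.21) and PALB2 (-0.070 to 0.15). Between the lines in DMSO they were TOPBP1 (-0.11 to 0.021), BRIP1 (-0.40 to 0.044), BRCA2 (-0.17 to 0.062) and PALB2 (-0.092 to 0.14), and in entinostat TOPBP1 (-0.071 to 0.018), FAM175A (-0.088 to 0.039) and BRCA2 (-0.039 to 0.12). For entinostat they were BABAM1 (-0.021 to 0.017) and BARD1 (-0.097 to 0.016) in BRCA1+ cells, BRCC3 (-0.059 to 0.011) in BRCA1-null cells, and BARD1 over both lines (-0.014 to 0.043). The causes were not tested. A fit without a library assumes that the lone remaining library of its group varies like the others.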
